A study of Mus musculus with 30 samples.

Results

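The genes Cd300a, Cd300c, Cd300e, Cd300lb, Cd300ld and Cd300lf, 6 members of the Cd300 receptor family, were followed in the RNA of 30 whole mouse melanoma tumors. They are the 6 rows, of 39676 gene rows in all, whose Ensembl identifiers carry these symbols in GENCODE M21, an annotation of GRCm38. The family was chosen by the measured differences of its genes between tumor types in earlier results of these data, so their differences between types are given as a description, without p-values. Of the 6, all but Cd300c averaged 10 counts or more over the tumors, and these 5 entered the fit of 15926 genes. Cd300c averaged 6.77 counts and is described by its counts.

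Cd300 proteins are cell-surface receptors with a single immunoglobulin domain, found mainly on myeloid cells such as monocytes, macrophages, neutrophils, mast cells and dendritic cells. They form a paired receptor system. Some members carry inhibitory motifs in long cytoplasmic tails and recruit phosphatases, while others have short tails and signal through adaptor proteins, and several bind the phospholipids that dying cells expose.

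The 3 tumor types were B16-GFP, B16-IFNA4 and B16-IFNA9, with 10 tumors each, taken 8 days after subcutaneous inoculation of female C57BL/6 mice, typically 8 to 12 weeks old. B16 is a mouse melanoma cell line. The cells of all 3 types, controls included, had been transduced with retroviruses for green fluorescent protein, for herpes simplex virus glycoprotein B with cyan fluorescent protein, and for luciferase with puromycin resistance. B16-IFNA4 and B16-IFNA9 cells additionally secreted interferon-α4 or interferon-α9 from a retroviral promoter, and each type came from sorted fluorescent cells. The added interferon was thus a transgene product of the tumor cells. The comparison asks how the receptor genes differ between tumors that secrete no added interferon, interferon-α4 or interferon-α9.

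Tumors had between 14598517 and 19788383 counts in all. Levels are given as CPM, counts scaled to library size with TMM factors. The 4 melanocyte markers summed to at least 2277 CPM in every tumor, and Ptprc, the gene of the pan-leukocyte protein CD45, averaged 80.6 CPM in B16-GFP, 507 CPM in B16-IFNA4 and 354 CPM in B16-IFNA9 tumors. B16-GFP tumor 7 stood apart, with a TMM factor of 0.768, the lowest of the 30, and the lowest level of its type for Cd300a, Cd300e, Cd300lb, Cd300ld and Cd300lf. Fold changes without it are given beside the results.

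Of the 12 Cd300 genes with a row, 11 lie together on chromosome 11 of GRCm38, between 114890041 and 115133992. Cd300a is on the plus strand (114890041 to 114904654) at one end. The minus strand holds Cd300lb (114922781 to 114934386), Cd300c (114956116 to 114969157), Cd300ld (114982274 to 114989922), Cd300e (115051917 to 115062177) and, at the other end, Cd300lf (115116214 to 115133992). Cd300lf lies inside Rab37, a gene of a Rab GTPase on the opposite strand (115091431 to 115162236), and the processed pseudogene Gm11699 lies inside Cd300lb. How the counting used strand is not given in the sources used here, so reads of Cd300lf and Rab37 may not have been told apart. Of the stretches of 50 bases in each member's transcripts, 3.89% of those of Cd300ld, 3.45% of those of Cd300a and 2.44% of those of Cd300lf also occur in other genes, and none of those of Cd300c, Cd300e and Cd300lb do.

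Promoter windows of 300 bases around the RefSeq start, in GRCm38.p6, were available for all 6 members, and 4 are shown to set the letters around the start beside the levels of these genes. Of the 5 fitted genes Cd300e has the largest fold change and Cd300lf the next, and Cd300ld has the highest level per length of the 6. Cd300c is the one member with the letters of an interferon response element. The windows are chr11:115061990-115062289 for Cd300e, chr11:115133943-115134242 for Cd300lf, chr11:114989837-114990136 for Cd300ld and chr11:114960458-114960757 for Cd300c, all on the minus strand and written 5′ to 3′. The RefSeq start of Cd300c lies inside the GENCODE gene and not at its 5′ end. Capitals mark the ISRE letters (GAAA and GAAA with 2 bases between), the GAS letters TTCNNNGAA, the ETS core GGAAGT and the longer PU.1 form GAGGAAGT, which contains the core.
Cd300e: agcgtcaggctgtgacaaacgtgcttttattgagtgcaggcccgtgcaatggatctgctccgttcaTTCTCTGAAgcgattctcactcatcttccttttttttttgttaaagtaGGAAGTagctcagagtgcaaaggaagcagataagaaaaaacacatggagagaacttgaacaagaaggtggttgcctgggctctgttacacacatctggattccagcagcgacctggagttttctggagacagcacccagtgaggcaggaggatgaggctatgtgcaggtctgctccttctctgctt
Cd300lf: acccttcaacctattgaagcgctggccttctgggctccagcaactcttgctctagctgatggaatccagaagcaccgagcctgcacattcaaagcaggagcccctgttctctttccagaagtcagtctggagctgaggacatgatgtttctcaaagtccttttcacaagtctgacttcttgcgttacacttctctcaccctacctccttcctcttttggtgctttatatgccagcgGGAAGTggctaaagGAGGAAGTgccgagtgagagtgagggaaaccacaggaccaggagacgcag
Cd300ld: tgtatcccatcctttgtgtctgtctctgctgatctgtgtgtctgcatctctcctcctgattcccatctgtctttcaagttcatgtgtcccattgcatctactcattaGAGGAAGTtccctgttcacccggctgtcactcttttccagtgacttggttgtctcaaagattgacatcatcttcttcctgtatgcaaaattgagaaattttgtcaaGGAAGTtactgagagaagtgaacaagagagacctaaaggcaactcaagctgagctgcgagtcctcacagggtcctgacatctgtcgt
Cd300c: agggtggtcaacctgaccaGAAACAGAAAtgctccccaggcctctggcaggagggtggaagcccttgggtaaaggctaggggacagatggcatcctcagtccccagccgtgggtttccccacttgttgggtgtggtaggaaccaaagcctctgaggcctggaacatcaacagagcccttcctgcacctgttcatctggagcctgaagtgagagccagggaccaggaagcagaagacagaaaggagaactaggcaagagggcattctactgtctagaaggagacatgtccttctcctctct

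In all, 10 motifs were searched on both strands. The ISRE letters, bound by interferon-activated factors, occur in 1 of the 6 member windows (Cd300c) and in 3.44% of the 32851 windows of this length, beside 9 of 20 windows of interferon-stimulated genes. The GAS letters, a STAT site, occur in Cd300e alone among the members, and in 8.30% of all windows. The ETS core is in 4 of the 6 (Cd300lb, Cd300ld, Cd300e and Cd300lf) and in 23.8% of all windows, and the PU.1 form, bound by a myeloid ETS factor, in 2 (Cd300ld and Cd300lf) and in 3.20%. In Cd300lf the PU.1 form begins at the first transcribed base of the RefSeq start, and in Cd300ld it begins 143 bases before the start.

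Of the other motifs, the C/EBP letters TTGCNNAA are in 1 of the 6 windows (Cd300a) and in 10.8% of all. RUNX letters TGTGGT are in 2 (Cd300c and Cd300lf) and in 16.8%, and TATAAA letters are in 2 (Cd300lb and Cd300lf) and in 13.6%. The ETS-IRF composite (GGAA and GAAA with 2 bases between), AP-1 letters TGANTCA and CRE letters TGACGT are in none of the 6 windows, beside 2.72%, 7.81% and 7.51% of all. These matches are letters in a window, not measured binding, and nothing is drawn from them about the factors.

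All 6 genes were higher in B16-IFNA4 than in B16-GFP tumors, without overlap between single tumors, and B16-IFNA9 tumors lay between these 2 types in every gene's mean. The summed level of the 6 genes was 22.2 to 79.4 CPM in B16-GFP tumors (median 60.8), 169 to 327 CPM in B16-IFNA4 tumors (median 253) and 95.5 to 188 CPM in B16-IFNA9 tumors (median 148). In whole tumors, more cells of a type and more RNA per cell cannot be told apart. The order of the fold changes was not that of the levels. Among the 5 fitted, Cd300e, nearly the lowest gene of the 6 in B16-GFP tumors, had the largest fold change. Cd300lb, above Cd300e and Cd300lf per length there, had the smallest.

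**Figure D1:**
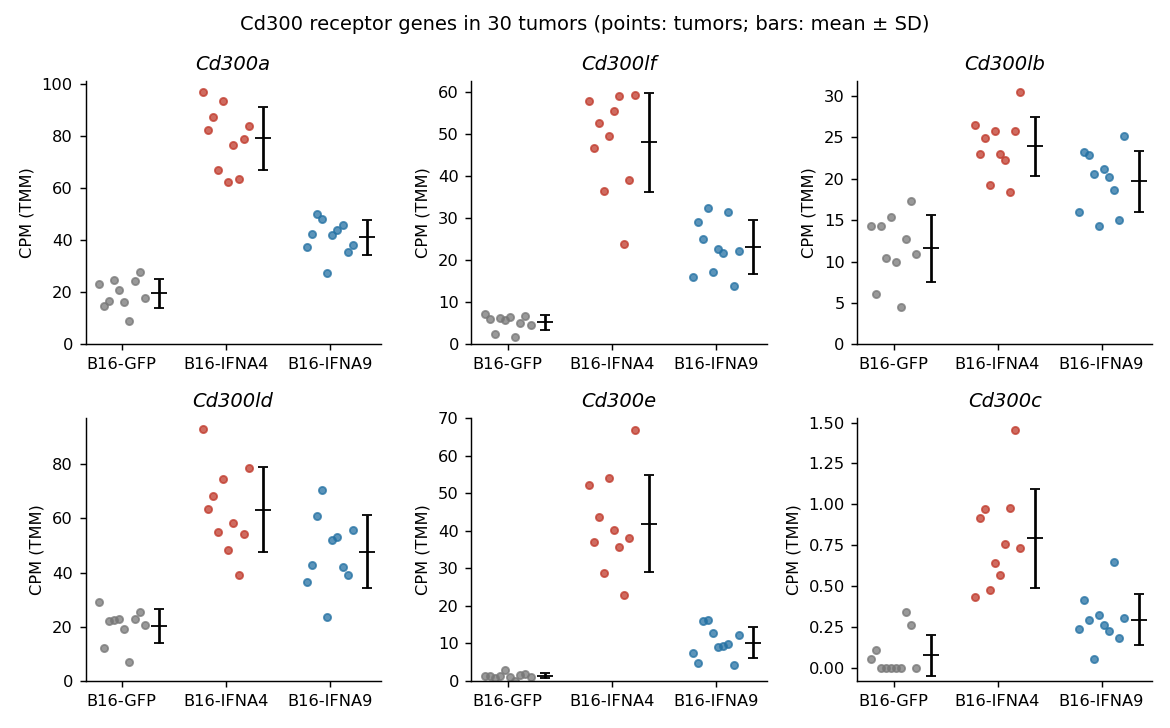
CPM after TMM scaling (vertical axis, its own scale for each gene) of the 6 Cd300 receptor genes in B16-GFP, B16-IFNA4 and B16-IFNA9 tumors. Points are tumors and bars are the mean ± SD (n = 10); the Cd300c axis runs below 0 only to show its bar. For each gene every B16-IFNA4 tumor lies above every B16-GFP tumor, and for Cd300e the means are 1.35, 42.0 and 10.2 CPM.

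Cd300a and Cd300lf are the inhibitory receptors of the set, with cytoplasmic motifs that recruit the phosphatases SHP-1 and SHP-2, and both bind phospholipids of dying cells. Cd300a (ENSMUSG00000034652.12) ranged from 8.92 to 27.7 CPM in B16-GFP tumors (median 19.3), from 62.1 to 96.7 CPM in B16-IFNA4 tumors (median 80.5) and from 27.2 to 50.2 CPM in B16-IFNA9 tumors (median 42.1). B16-IFNA4 tumors lay above all others, and 9 of the 10 B16-IFNA9 tumors lay above all B16-GFP tumors. Its log2 fold change was 2.02 ± 0.144 (SE) for B16-IFNA4 against B16-GFP, 1.07 ± 0.141 for B16-IFNA9 against B16-GFP and −0.95 ± 0.139 for B16-IFNA9 against B16-IFNA4. The first 2 of these comparisons share the B16-GFP tumors, here and for every gene below.

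Cd300lf (ENSMUSG00000047798.15) ranged from 1.61 to 7.21 CPM in B16-GFP tumors (median 5.90), from 23.9 to 59.4 CPM in B16-IFNA4 tumors (median 51.1) and from 13.8 to 32.4 CPM in B16-IFNA9 tumors (median 22.4). Both interferon types lay wholly above B16-GFP, and 6 of the 10 B16-IFNA9 tumors lay below every B16-IFNA4 tumor. The log2 fold changes were 3.20 ± 0.216 (SE), or 9.17-fold, for B16-IFNA4 against B16-GFP, 2.15 ± 0.209 for B16-IFNA9 against B16-GFP and −1.05 ± 0.197 for B16-IFNA9 against B16-IFNA4. Rab37, which contains it on the other strand, had 1.03 CPM in the median B16-GFP tumor, 5.20 CPM in B16-IFNA4 and 3.71 CPM in B16-IFNA9, each below the median of Cd300lf. Rab37 was 1.80 ± 0.250 (log2, SE) higher in B16-IFNA4 than in B16-GFP tumors (edgeR quasi-likelihood test, adjusted p = 3.65e-07) and 1.31 ± 0.249 higher in B16-IFNA9 (adjusted p = 6.29e-05). Whether these are reads of one or of both genes was not tested.

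Cd300e is an activating receptor of monocytes that signals through the adaptor DAP12. Cd300e (ENSMUSG00000048498.7) ranged from 0.0892 to 2.80 CPM in B16-GFP tumors (1 to 51 counts, median 1.30 CPM), from 23.0 to 66.8 CPM in B16-IFNA4 tumors (median 39.1) and from 4.28 to 16.3 CPM in B16-IFNA9 tumors (median 9.55). No tumor of one type overlapped another type. The log2 fold changes were 4.92 ± 0.300 (SE), or 30.3-fold, for B16-IFNA4 against B16-GFP, 2.89 ± 0.284, or 7.40-fold, for B16-IFNA9 against B16-GFP, and −2.03 ± 0.254 for B16-IFNA9 against B16-IFNA4.

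Cd300lb and Cd300ld are activating receptors that pair with the adaptors DAP12 and the Fc receptor γ chain. Cd300lb (ENSMUSG00000063193.8) ranged from 4.46 to 17.4 CPM in B16-GFP tumors (median 11.8), from 18.5 to 30.5 CPM in B16-IFNA4 tumors (median 24.0) and from 14.3 to 25.1 CPM in B16-IFNA9 tumors (median 20.4). B16-IFNA4 lay above B16-GFP, while B16-IFNA9 overlapped both other types. Its log2 fold changes were the smallest of the 5 fitted genes, 1.04 ± 0.168 (SE) for B16-IFNA4 against B16-GFP, 0.76 ± 0.167 for B16-IFNA9 against B16-GFP and −0.28 ± 0.165 for B16-IFNA9 against B16-IFNA4.

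Cd300ld (ENSMUSG00000034641.2), the highest of the 6 per length in every type, ranged from 7.14 to 29.1 CPM in B16-GFP tumors (median 22.3), from 39.2 to 92.9 CPM in B16-IFNA4 tumors (median 61.0) and from 23.8 to 70.4 CPM in B16-IFNA9 tumors (median 47.5). Of the 10 B16-IFNA9 tumors, 9 lay above every B16-GFP tumor, and 2 lay below every B16-IFNA4 tumor. The log2 fold changes were 1.63 ± 0.193 (SE), 1.22 ± 0.192 and −0.41 ± 0.188 in the same order of comparisons.

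Cd300c (ENSMUSG00000058728.14), which encodes another activating member, had no count in 6 of the 10 B16-GFP tumors, which allows up to 3 counts in each, and 1 to 6 counts in the others. It had 7 to 25 counts in B16-IFNA4 tumors and 1 to 10 in B16-IFNA9 tumors. The counts of B16-IFNA4 and B16-GFP tumors thus did not overlap in CPM, whereas 2 of the 10 B16-IFNA9 tumors lay above all B16-GFP tumors. At these counts no fold change is given.

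**Figure D2:**
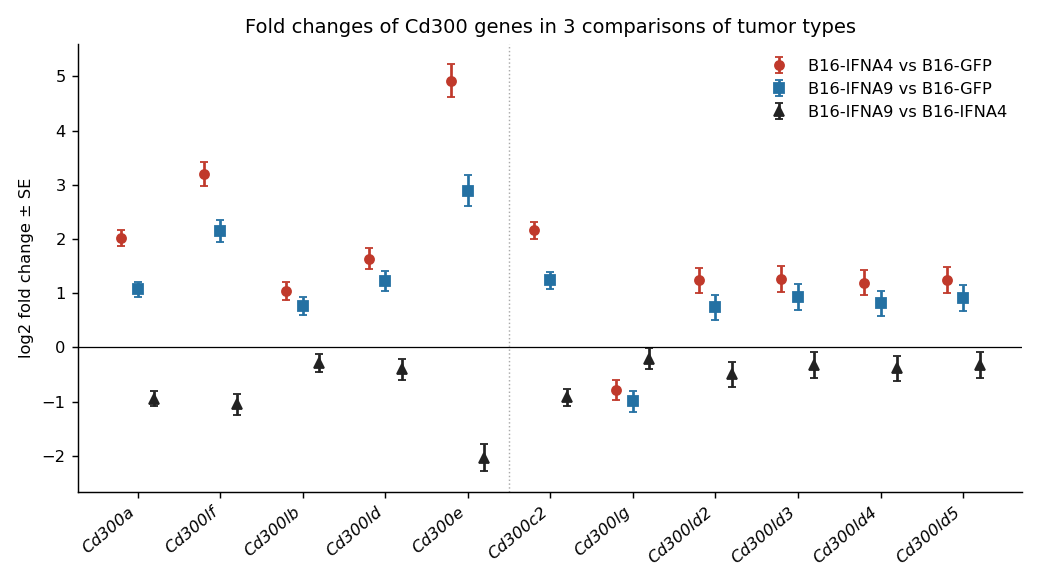
Log2 fold changes ± SE (edgeR quasi-likelihood fit of 30 tumors) of the 5 fitted members, left of the dotted line, and of 6 other Cd300 genes, right of it, in 3 comparisons of tumor types. Cd300e stands highest at 4.92 and 2.89 against B16-GFP and lowest at −2.03 between the interferon types; Cd300lg is below 0 in all 3.

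By the threshold used for all genes, an adjusted p under 0.05, all 5 fitted members were called higher in B16-IFNA4 than in B16-GFP tumors, where 31.3% of all tested genes were called higher and 34.1% lower. All 5 were also called higher in B16-IFNA9 than in B16-GFP tumors, against 26.9% higher and 28.9% lower over all genes. Between B16-IFNA9 and B16-IFNA4 tumors, Cd300a, Cd300e and Cd300lf were called lower and Cd300lb and Cd300ld were not called, against 7.25% of all genes called lower and 10.5% called higher. All 5 had every B16-IFNA4 tumor above every B16-GFP tumor, as did 8.50% of tested genes. Cd300e and Cd300lf had every B16-IFNA9 tumor above every B16-GFP tumor (4.44% of tested genes), and Cd300a and Cd300e had every B16-IFNA9 tumor below every B16-IFNA4 tumor (0.741%). Since the family was chosen with these contrasts in view, nothing is read from the counts. The median log2 fold changes of the 5 were 2.02, 1.22 and −0.95 in the 3 comparisons, beside 0.01, 0.00 and −0.01 over all tested genes. Without B16-GFP tumor 7, the log2 fold changes against B16-GFP were 1.95 and 1.00 for Cd300a, 4.82 and 2.78 for Cd300e, 0.97 and 0.68 for Cd300lb, 1.55 and 1.13 for Cd300ld, and 3.12 and 2.05 for Cd300lf, for B16-IFNA4 and B16-IFNA9 in turn.

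Per kilobase of exon, which allows levels to be compared between genes, the shares of the 6 genes in their own sum differed between the types. These shares leave out the other measured Cd300 genes, some of which had higher levels per kilobase, such as Cd300c2 with 33.1 ± 7.24 CPM per kilobase (SD, n = 10) in B16-IFNA4 tumors. Summed over the 6 genes the level was 17.5 ± 5.25 CPM per kilobase (SD, n = 10) in B16-GFP, 79.0 ± 16.5 in B16-IFNA4 and 43.1 ± 9.25 in B16-IFNA9 tumors. Cd300ld was first of the 6 in each type, with a share of the sum of 43.8 ± 2.99% in B16-GFP, 30.1 ± 2.45% in B16-IFNA4 and 41.3 ± 4.81% in B16-IFNA9 tumors. Cd300e held 3.54 ± 1.60% of the sum in B16-GFP tumors (0.661% to 6.45%), 25.0 ± 3.08% in B16-IFNA4 tumors (21.5% to 31.4%) and 11.4 ± 4.30% in B16-IFNA9 tumors (5.65% to 20.8%). Its share in single B16-IFNA4 tumors thus lay above that in every other tumor. The share of Cd300lb ran the other way, at 22.5 ± 3.07%, 10.6 ± 1.08% and 15.8 ± 1.92%. The ratio of Cd300e to Cd300lb per kilobase was 0.0279 to 0.309 in B16-GFP, 1.74 to 3.06 in B16-IFNA4 and 0.294 to 1.25 in B16-IFNA9 tumors. The inhibitory members Cd300a and Cd300lf together held 29.8 ± 4.01% in B16-GFP, 33.3 ± 2.29% in B16-IFNA4 and 30.8 ± 3.22% of the sum in B16-IFNA9 tumors, and the ranges of the types overlapped.

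**Figure D3:**
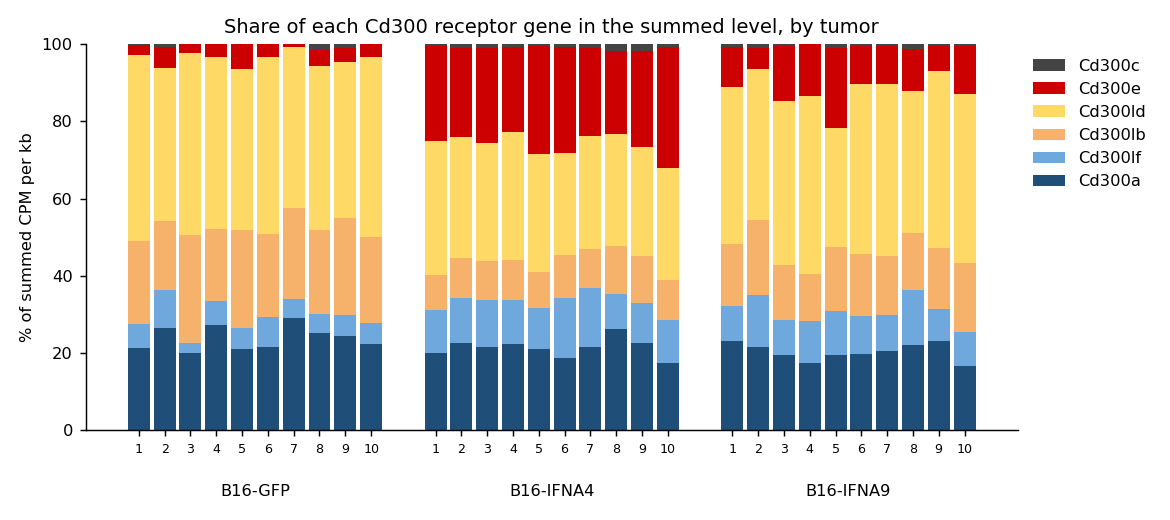
Share (%, vertical axis from 0 to 100) of each of 6 Cd300 receptor genes in their summed CPM per kilobase, 1 bar per tumor, numbered by replicate within B16-GFP, B16-IFNA4 and B16-IFNA9. The Cd300e segment is 25.0% on average in B16-IFNA4 tumors, 11.4% in B16-IFNA9 and 3.54% in B16-GFP.

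In B16-GFP tumors the order of mean levels per kilobase was Cd300ld, Cd300a, Cd300lb, Cd300lf, Cd300e and Cd300c. Of neighbours in that order, Cd300a was above Cd300lb in 6 of 10 tumors, and their ranges overlapped, while Cd300lb and Cd300lf did not overlap. In B16-IFNA4 tumors Cd300e took the second place, above Cd300a in 8 of 10 tumors, followed by Cd300lf, Cd300lb and Cd300c. In B16-IFNA9 tumors the order was Cd300ld, Cd300a, Cd300lb, Cd300e, Cd300lf and Cd300c, and Cd300e was above Cd300lf in 6 of 10 tumors. These last 2 genes changed places when the longest transcript was used for the length.

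The other Cd300 genes moved to different extents. Cd300c2, an activating member next to Cd300ld, had log2 fold changes of 2.16 ± 0.157 (SE) in B16-IFNA4 against B16-GFP tumors (edgeR quasi-likelihood test, adjusted p = 8.93e-13), 1.24 ± 0.154 in B16-IFNA9 against B16-GFP (adjusted p = 1.25e-07) and −0.92 ± 0.151 between the interferon types (adjusted p = 6.41e-05), close to the values of Cd300a. Of its stretches of 50 bases, 7.16% occur in other genes, Cd300a among them. Cd300lg, which encodes an endothelial mucin and lies elsewhere on chromosome 11 (102041509 to 102055620), was lower in both interferon types, by −0.79 ± 0.189 in B16-IFNA4 (adjusted p = 0.000602) and −0.99 ± 0.190 in B16-IFNA9 (adjusted p = 6.81e-05). Of 8 endothelial markers tested, 6 fell in each of these comparisons, beside 34.1% of all genes called lower in B16-IFNA4 and 28.9% in B16-IFNA9, and 1 rose in B16-IFNA4, and their summed level was 266 to 628 CPM in B16-GFP, 284 to 412 CPM in B16-IFNA4 and 140 to 280 CPM in B16-IFNA9 tumors. Their part in the Cd300lg result was not tested. Cd300ld2, Cd300ld3, Cd300ld4 and Cd300ld5 rose by 1.20 to 1.26 in B16-IFNA4 and by 0.74 to 0.93 in B16-IFNA9 against B16-GFP, and none was called between the interferon types. Of these 4, Cd300ld3, Cd300ld4 and Cd300ld5 are uncertain as single genes, and Cd300ld2 is less so, with 31.0% of its stretches of 50 bases found in other genes. All stretches of 50 bases of Cd300ld5, 93.8% of those of Cd300ld4 and 82.1% of those of Cd300ld3 occur in other genes, and the counts of Cd300ld3 and Cd300ld5 stood in a ratio of 0.951 to 1.003 in the 30 tumors.

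Of the genes beside the cluster, some were called and others were not. Rab37, which reaches beyond Cd300lf, rose as given above. Gprc5c, next to Cd300a, differed by −0.36 ± 0.203 (log2, SE) in B16-IFNA4 (adjusted p = 0.118) and fell by 0.57 ± 0.204 in B16-IFNA9 tumors (adjusted p = 0.0187). Slc9a3r1, beyond Cd300lf, differed from B16-GFP by 0.14 ± 0.113 in B16-IFNA4 (adjusted p = 0.264) and 0.05 ± 0.113 in B16-IFNA9 tumors (adjusted p = 0.711). Farther on, Nat9 rose by 0.33 ± 0.121 in B16-IFNA4 (adjusted p = 0.0188) and differed by 0.22 ± 0.121 in B16-IFNA9 (adjusted p = 0.123). Tmem104 had −0.05 ± 0.142 (adjusted p = 0.773) and −0.01 ± 0.142 (adjusted p = 0.978), signs that turned with the scaling. Btbd17 and Gpr142, on the side of Cd300a, had too few counts for the fit.

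The partners of activating receptors mostly rose with interferon. The counts of this and the next lists stand beside 31.3% of all tested genes called higher and 34.1% lower in B16-IFNA4, and 26.9% and 28.9% in B16-IFNA9, and beside 10.5% higher and 7.25% lower in B16-IFNA9 against B16-IFNA4. Of 13 adaptors and kinases, 13 rose in B16-IFNA4 and 12 in B16-IFNA9 against B16-GFP tumors, with median log2 fold changes of 1.39 and 1.00, and 5 were lower in B16-IFNA9 than in B16-IFNA4 (median −0.42), a count of 3 to 8 with single tumors left out. Tyrobp, which encodes DAP12, rose by 0.82 ± 0.171 (SE) in B16-IFNA4 (edgeR, adjusted p = 0.000137) and 0.50 ± 0.171 in B16-IFNA9 (adjusted p = 0.0141). Fcer1g, the gene of the Fc receptor γ chain, rose by 1.28 ± 0.162 (adjusted p = 7.92e-08) and 0.85 ± 0.161 (adjusted p = 6.58e-05). Lyn, a Src-family kinase, rose by 1.37 and 0.94, and the kinase gene Syk by 0.72 and 0.58. The changes of Tyrobp and Fcer1g were thus smaller than those of Cd300e, a difference that was not tested.

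The partners of inhibitory receptors were counted likewise. Of 8 phosphatases and binding partners, 6 rose and 1 fell in B16-IFNA4 against B16-GFP tumors (median 0.38), 4 rose and none fell in B16-IFNA9 (median 0.18), and 2 were lower in B16-IFNA9 than in B16-IFNA4 (median −0.09), a count of 0 to 2 with single tumors left out. Ptpn6, the gene of SHP-1, rose by 1.34 ± 0.133 (SE) in B16-IFNA4 (edgeR, adjusted p = 6.49e-10) and 0.94 ± 0.132 in B16-IFNA9 (adjusted p = 8.49e-07). It was 0.40 ± 0.130 lower in B16-IFNA9 than in B16-IFNA4 tumors, a log2 fold change of −0.40 (adjusted p = 0.0321). For Ptpn11, the gene of SHP-2, the values were 0.05 ± 0.057 in B16-IFNA4 (adjusted p = 0.419) and 0.03 ± 0.057 in B16-IFNA9 (adjusted p = 0.712). Csk, the gene of a kinase that restrains Src-family kinases, fell by 0.38 ± 0.148 in B16-IFNA4 (adjusted p = 0.0245) and had −0.33 ± 0.148 in B16-IFNA9 (adjusted p = 0.0549). The first call was lost with library totals and without B16-GFP tumor 7 or B16-IFNA4 tumor 3, and B16-IFNA9 was called lower with DESeq2 and with some single tumors left out. Grb2, a general adaptor, rose by 0.28 ± 0.067 in B16-IFNA4 (adjusted p = 0.000551) and differed by 0.13 ± 0.067 in B16-IFNA9 (adjusted p = 0.0926).

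Other receptors with a like division into inhibitory and activating forms also mostly rose. Of 30 tested, 25 rose and 1 fell in B16-IFNA4 against B16-GFP tumors (median 1.48), 23 rose and 2 fell in B16-IFNA9 (median 1.08), and 11 were lower and 1 higher in B16-IFNA9 than in B16-IFNA4 (median −0.35). Pirb, an inhibitory receptor gene, rose by 1.52 ± 0.203 in B16-IFNA4 (edgeR, adjusted p = 1.74e-07) and 1.21 ± 0.201 in B16-IFNA9 (adjusted p = 1.19e-05), and Siglec1, a sialic acid receptor gene, by 1.01 and 0.84. Of 14 receptors and bridging proteins for phospholipids and dead cells, 7 rose and 1 fell in B16-IFNA4 (median 0.41) and 5 rose and 1 fell in B16-IFNA9 (median 0.13), the latter near the share of all genes called higher. The other 6 of the 14 in B16-IFNA4 and 8 in B16-IFNA9 were not called. Axl, a receptor tyrosine kinase gene of that list, rose by 1.28 ± 0.144 (adjusted p = 8.16e-09) and 1.05 ± 0.144 (adjusted p = 6.53e-07), above the medians of the list.

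Marker lists of the cell types a tumor can hold were counted in the same comparisons, beside the same shares of all genes. Of 11 monocyte markers, 9 rose in B16-IFNA4 and 8 in B16-IFNA9 against B16-GFP tumors, with medians of 2.03 and 1.40, and 7 were lower in B16-IFNA9 than in B16-IFNA4. Ly6c2, the Ly6C gene of inflammatory monocytes, rose by 3.24 ± 0.179 (SE) in B16-IFNA4 (edgeR, adjusted p = 2.18e-15) and 2.35 ± 0.173 in B16-IFNA9 (adjusted p = 2.53e-12). Of 15 macrophage markers, 3 rose and 4 fell in B16-IFNA4 (median −0.35), and 3 rose and 2 fell in B16-IFNA9 (median −0.05). Mrc1, the mannose receptor gene of macrophages, fell by 0.78 ± 0.211 in B16-IFNA4 (adjusted p = 0.00193) and differed by −0.05 ± 0.209 in B16-IFNA9 (adjusted p = 0.863), the latter with a sign that turned with the scaling. Of 9 pan-leukocyte markers, 8 rose and 1 fell in B16-IFNA4, and 8 rose and none fell in B16-IFNA9. Of 10 nonclassical monocyte markers, 8 rose and 1 fell in B16-IFNA4, and 4 rose and 1 fell in B16-IFNA9. Neutrophil markers were split, with 4 of 10 higher and 3 lower in B16-IFNA4, and 3 higher and 3 lower in B16-IFNA9. Among those that rose in both were Acod1 (3.62 and 3.55), which makes itaconate, Csf3r (2.01 and 1.23), the G-CSF receptor gene, and Il1r2 (0.99 and 0.66), a decoy receptor gene for interleukin-1. The 3 that fell in both, named after their values were seen, were S100a8 (−0.72 and −1.14) and S100a9 (−0.72 and −1.88), the calprotectin genes, and Mmp9 (−1.03 and −0.86), a matrix metalloproteinase gene. The calls of S100a8 and S100a9 in B16-IFNA4 and of Mmp9 in B16-IFNA9 were lost with a replicate block and with B16-GFP tumor 1 (S100a8, S100a9) or 8 (Mmp9) left out, and that of S100a9 also under other alternatives. All 7 NK cell markers and all 23 interferon-stimulated genes rose in both, and of 9 T cell markers 9 and 8 rose and none fell. Of 9 plasmacytoid dendritic cell markers, 7 rose and none fell in B16-IFNA4, and 5 rose and 1 fell in B16-IFNA9. Of 12 conventional dendritic cell markers, 5 rose and 1 fell in B16-IFNA4, and 9 rose and 1 fell in B16-IFNA9. Of 6 mast cell and basophil markers, 2 rose and none fell in B16-IFNA4, and 1 rose and 1 fell in B16-IFNA9, and of 2 B cell markers 1 rose in each. All 4 melanocyte markers fell in both. Of 9 macrophage transcription factor and growth factor genes, 7 and 4 rose. Summed over a list, pan-leukocyte markers had 739 to 1350 CPM in B16-GFP, 1605 to 3307 CPM in B16-IFNA4 and 1250 to 2362 CPM in B16-IFNA9 tumors, neutrophil markers 40.5 to 153, 166 to 241 and 85.3 to 173 CPM, and interferon-stimulated genes 480 to 1700, 7060 to 11320 and 5585 to 7924 CPM. No list had a gene at 0 in every tumor of a type. The part that shifts in cell types had in the Cd300 results was not tested.

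The Cd300 sum was also set against markers within each tumor. The 11 monocyte markers summed to 708 to 2578 CPM in B16-GFP, 3119 to 5595 CPM in B16-IFNA4 and 2023 to 3563 CPM in B16-IFNA9 tumors. For each 100 CPM of these 11 markers the 6 Cd300 genes had a mean of 3.14 CPM (2.57 to 3.98, n = 10) in B16-GFP, 5.57 CPM (4.62 to 6.47) in B16-IFNA4 and 4.58 CPM (3.73 to 5.49) in B16-IFNA9 tumors. B16-GFP and B16-IFNA4 tumors did not overlap in this ratio, and B16-IFNA9 tumors overlapped both. Fn1, the fibronectin gene, which fibroblasts and tumor cells also express, made up 58.5 ± 7.67% of the marker sum in B16-GFP, 27.3 ± 4.52% in B16-IFNA4 and 34.3 ± 5.49% in B16-IFNA9 tumors, and the ratio was also taken without it, a choice made after its level was seen. The other 10 markers summed to 347 to 1224 CPM, 2119 to 3961 CPM and 1148 to 2580 CPM in the 3 types. For each 100 CPM of these 10 the Cd300 genes had 7.76 CPM (4.60 to 9.54), 7.67 CPM (6.30 to 8.57) and 7.01 CPM (5.55 to 9.24), and all 3 ranges overlapped. The difference between types in the Cd300 level per monocyte marker thus depended on Fn1.

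Single genes differed in this ratio, and for some the order of the types also depended on Fn1. For each 100 CPM of all 11 monocyte markers, Cd300e had 0.0126 to 0.142 CPM in B16-GFP, 0.694 to 1.33 CPM in B16-IFNA4 and 0.148 to 0.632 CPM in B16-IFNA9 tumors, without overlap. Without Fn1 it had 0.0257 to 0.360, 0.879 to 1.79 and 0.220 to 1.11 CPM, and B16-IFNA9 tumors then overlapped both other types. Cd300lf had means of 0.286, 1.03 and 0.743 CPM with all 11 and 0.711, 1.42 and 1.14 CPM without Fn1. For these 2 genes both interferon types had the higher mean either way. Cd300a had 1.06 ± 0.167, 1.73 ± 0.216 and 1.32 ± 0.103 CPM with all 11, higher means in the interferon types, but 2.63 ± 0.515, 2.39 ± 0.305 and 2.02 ± 0.203 CPM without Fn1, lower ones. Cd300ld likewise had 1.09 ± 0.188, 1.37 ± 0.224 and 1.52 ± 0.305 CPM with all 11 and 2.71 ± 0.615, 1.88 ± 0.249 and 2.32 ± 0.482 CPM without Fn1, so that its lowest mean was in B16-GFP in the first case and in B16-IFNA4 in the second. Cd300lb had its lowest mean in B16-IFNA4 either way, with 0.619 ± 0.115, 0.524 ± 0.0625 and 0.639 ± 0.103 CPM with all 11 and 1.52 ± 0.334, 0.724 ± 0.0988 and 0.987 ± 0.236 CPM without Fn1.

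Against the 15 macrophage markers, the Cd300 genes had 0.954 ± 0.288 CPM for each 100 CPM of markers in B16-GFP, 6.52 ± 1.29 CPM in B16-IFNA4 and 2.92 ± 0.743 CPM in B16-IFNA9 tumors. Gpnmb, which melanoma cells also express, made up 59.3 ± 10.5% of the marker sum in B16-GFP tumors. Without it, again a choice made after its level was seen, the other 14 summed to 987 to 3531 CPM in B16-GFP, 1848 to 2902 CPM in B16-IFNA4 and 1632 to 3293 CPM in B16-IFNA9 tumors, and the ratios were 2.36 ± 0.418, 12.1 ± 2.37 and 5.99 ± 1.78 CPM. The order of the 3 types was the same with and without Gpnmb.

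**Figure D4:**
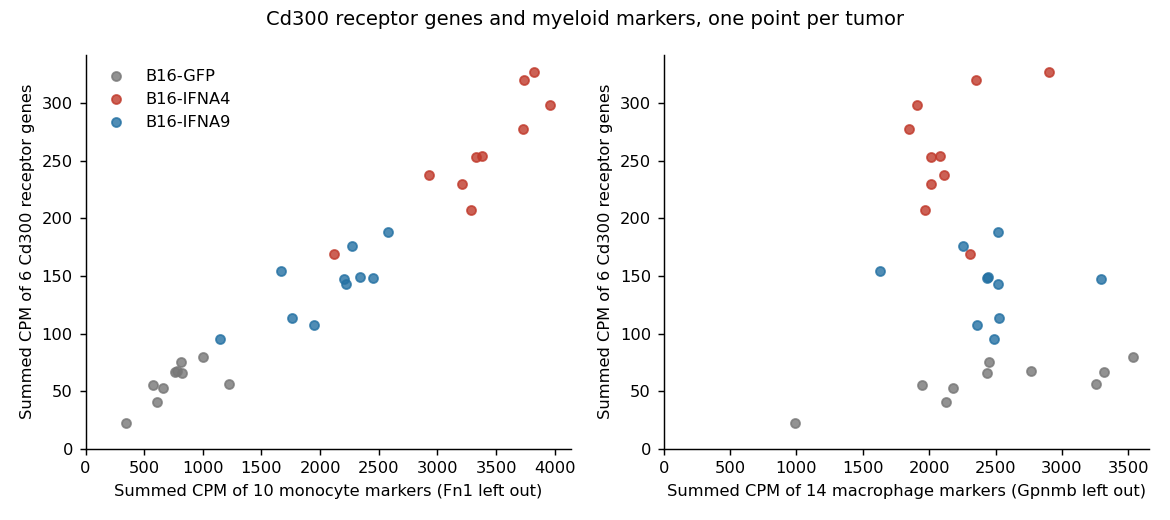
Summed CPM of the 6 Cd300 receptor genes (vertical axes) against the summed CPM of 10 monocyte markers without Fn1 (left) and of 14 macrophage markers without Gpnmb (right), 1 point per tumor, coloured by type. On the left the types follow one band, with 7.76, 7.67 and 7.01 CPM of Cd300 genes for each 100 CPM of markers, but with Fn1 kept the values are 3.14, 5.57 and 4.58 CPM and B16-GFP does not overlap B16-IFNA4, whereas on the right the same marker level goes with different Cd300 levels in the 3 types.

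Relations within 1 tumor type do not use the difference between types and were tested. Each of the 5 fitted genes was compared with the mean log2 CPM of 5 lists in each type, 75 relations in all, by two-sided permutation tests with 100000 resamples. By Pearson's r, 22 had an adjusted p under 0.05 (Benjamini-Hochberg over the 75), 14 of them in B16-GFP, 7 in B16-IFNA4 and 1 in B16-IFNA9 tumors, and all 22 were positive. By Spearman's rho none did, nor did any by r once the 2 tumors farthest from the median of the list were left out, which leaves 8 tumors. Without B16-GFP tumor 7 there were 8, and without B16-IFNA4 tumor 8 there were 14. With 8 tumors a missed threshold does not show that a relation is absent.

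The relation of Cd300a to monocyte markers in B16-IFNA9 tumors had r = 0.897 (permutation p = 0.00086, adjusted p = 0.0124) and rho = 0.806 (permutation p = 0.00739, adjusted p = 0.0748), and r was 0.811 without the 2 farthest tumors. That of Cd300ld to monocyte markers in B16-IFNA4 tumors had r = 0.879 (permutation p = 0.0003, adjusted p = 0.00937) and rho = 0.903 (permutation p = 0.0009, adjusted p = 0.0675), with r = 0.852 without the 2. Cd300ld and interferon-stimulated genes in the same type had r = 0.888 (permutation p = 0.00048, adjusted p = 0.00937) and rho = 0.794 (permutation p = 0.00889, adjusted p = 0.0748), with r = 0.807 without the 2. In contrast, the r of 0.865 between Cd300ld and nonclassical monocyte markers in B16-GFP tumors (permutation p = 0.00588, adjusted p = 0.0246) fell to −0.0339 without the 2, and its rho was 0.503 (permutation p = 0.143, adjusted p = 0.292), so it rested on those tumors. For Cd300e in B16-IFNA9 tumors, r ran from −0.41 with neutrophil markers to 0.12 with nonclassical monocyte markers, and none of its 5 relations there had an adjusted p under 0.05. Its r with monocyte markers was 0.03 (permutation p = 0.936) over the 10 tumors and 0.694 (permutation p = 0.0531) without the 2 farthest. Its rho over the 10 was 0.224 (permutation p = 0.537). The low r thus changed when these 2 tumors were left out, and why was not tested.

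**Figure D5:**
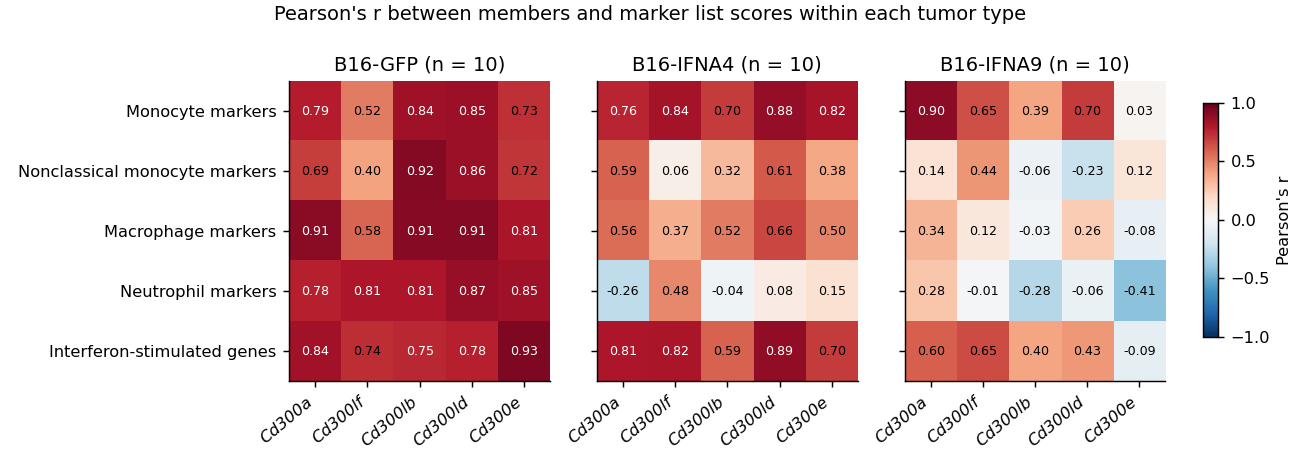
Pearson's r (colour and number) between the log2 CPM of 5 Cd300 receptor genes (columns) and the mean log2 CPM of 5 gene lists (rows) across the 10 tumors of each type. All r are positive in B16-GFP tumors, from 0.401 to 0.930, while in B16-IFNA9 tumors the highest, 0.897, joins Cd300a and monocyte markers.

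Among themselves the 5 genes had a positive r in every pair within each type, given as a description over 10 tumors. Pearson's r ran from 0.510 to 0.942 in B16-GFP, from 0.546 to 0.952 in B16-IFNA4 and from 0.233 to 0.857 in B16-IFNA9 tumors. In B16-IFNA9 tumors the r of Cd300e with the other genes ran only from 0.233 to 0.407. The lowest, 0.233, was that of Cd300a and Cd300e in B16-IFNA9 tumors, a pair with r = 0.735 in B16-IFNA4 and 0.835 in B16-GFP tumors. Cd300a and Cd300ld stayed close in all types, at 0.911, 0.907 and 0.857.

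Over all 30 tumors, where the difference between types is part of every correlation, the genes most like each member differed, and no p is given. The closest to Cd300a was Slfn2, an interferon-induced Schlafen gene (r = 0.979), followed by Cd300c2 (0.977) and Atp10a (0.975). For Cd300e they were Cd72 (0.982), Cd300c2 (0.975) and Trim25 (0.971), and for Cd300lf they included Slc15a3, an endolysosomal transporter gene (0.980), and Il10ra (0.978). For Cd300ld they were the Toll-like receptor gene Tlr13 (0.984), Clec4a1 (0.983) and Tlr1 (0.982), and for Cd300lb Gm14548 (0.946), Cd300ld (0.944) and Evi2a (0.944). Cd300lb thus had no gene as close as the other 4 had, and its r with Cd300lf was 0.849.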

How the data were processed

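RNA of 30 whole tumors, 10 per type as named in the labels, was sequenced by the authors from strand-specific mRNA libraries, with 50-base reads from one end. The submitters' processing notes name FastQC 0.11.3, HISAT2 2.0.4 and the build mm10, the methods a build mm11, and summarizeOverlaps as the counter. The deposited table holds raw counts, not normalized. The strand setting, the overlap mode and the handling of reads with several alignments are not given in the sources used here. Of the 39676 identifiers, 39495 were found in GENCODE M21 and 181 were not.

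Genes that averaged 10 counts or more were fitted over all 30 tumors with edgeR 4.0.16 (quasi-likelihood test, TMM, R 4.3.3), with Benjamini-Hochberg adjustment over 15926 genes and a threshold of 0.05. The common biological coefficient of variation was 0.281. Log2 CPM took a prior count of 2. P-values of the fit set a difference between types against the spread among tumors of the same type, estimated over all 30 tumors. Permutation p-values concern a relation among the 10 tumors of a type. The labels call the tumors biological replicates. Each type came from a transduced and sorted cell line, so other differences between the lines cannot be told apart from the interferon. SEs follow from the F statistics. The fit and the permutation tests were tested on simulated data. Levels between genes were compared as CPM per kilobase of exon union. Relations were tested with NumPy 2.4.6, and plots drawn with Matplotlib 3.10.9. Promoter windows are RefSeq's, GRCm38.p6.

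The members and the lists of partner and marker genes were chosen with earlier results of these data known. Named are the members, the other Cd300 genes, neighbouring and overlapping genes, the 3 genes most like each member (1 of them is not reported here), and of each list genes among its 4 with the highest mean CPM. S100a8, S100a9 and Mmp9 fall outside this rule and were named after their values were seen. Of 7 other Cd300 genes listed, 6 had a row. Alternatives were DESeq2 1.42.0, its size factors or library totals, filterByExpr or no filter, only the 20 tumors compared, a replicate block, a fold change of at least 2, and each tumor left out in turn.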

Additional observations from a re-analysis of the deposited data

Results flagged for a closer look

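Each of the 5 fitted members and the 6 other Cd300 genes was searched in each tumor type for a tumor far from the other 9 (Dixon's test on log2 CPM, 33 groups, of which chance alone would give 1.65). It found 2 values, both in B16-GFP tumor 7. Cd300e was at −2.28 log2 CPM there (1 count), and Cd300c2 was at 1.92 log2 CPM (41 counts). The same tumor had the lowest TMM factor of the 30, 0.768. Without it, the log2 fold change of Cd300e was 4.82 ± 0.270 (SE) for B16-IFNA4 against B16-GFP and 2.78 ± 0.256 for B16-IFNA9 against B16-GFP, and the calls of Cd300e were the same. Without it the Csk call in B16-IFNA4, the relations within types and some list counts moved, as given with those results.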

How the results depend on the processing

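The sign and call of the log2 fold change of each of the 5 fitted members, with 5, 5 and 3 called in the 3 comparisons, were the same under the 7 other fits and in all 30 fits that left out 1 tumor. Without a filter Cd300c entered as well and was called in each, giving 6, 6 and 4. Nothing is read from these calls, since the members were chosen by these contrasts and Cd300c has few counts. Requiring a fold change of at least 2 left 5, 4 and 2 members, without Cd300lb in B16-IFNA9 against B16-GFP and without Cd300a between the interferon types. Cd300e ranged from 4.82 to 5.10 and from 2.78 to 3.07 over these 30 fits against B16-GFP, and from −2.13 to −1.92 between the interferon types.

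A fold change of at least 2 reduced the other Cd300 genes called from 6 to 1 in B16-IFNA9 against B16-GFP and from 1 to 0 against B16-IFNA4, and the adaptors and kinases from 12 to 7 and from 5 to 0 in the same comparisons. Phosphatases and partners went from 7, 4 and 2 to 2, 0 and 0 over the 3 comparisons, and phospholipid and dead-cell receptors from 8, 6 and 2 to 2, 3 and 1. Other paired receptors went from 25 to 15 and from 12 to 4 in the 2 comparisons of B16-IFNA9, and all genes from 10412, 8876 and 2833 to 2974, 1992 and 450. Fitting only the 20 tumors compared gave, between B16-IFNA9 and B16-IFNA4, 2 other Cd300 genes, 9 adaptors and kinases, 4 phospholipid and dead-cell receptors and 4332 of all genes. Without a filter there were 3 adaptors and kinases. Tumors with the same replicate number did not deviate together (each tumor's best match was its own number in 1 of 10 pairs, 1 of 10 and 0 of 10), and a replicate block gave 3 adaptors and kinases and 0 phosphatases between the interferon types. Leaving out 1 tumor gave 3 to 8 adaptors and kinases there (8 without B16-GFP 7, and 3 without B16-IFNA4 1, 5, 6, 7 or 10 or B16-IFNA9 1, 3, 5, 9 or 10). It gave 0 to 2 phosphatases and partners (0 without B16-IFNA4 7 or 10 or B16-IFNA9 4, 9 or 10, and 1 without B16-IFNA4 1, 5 or 6 or B16-IFNA9 1 or 5) and 2 to 4 phospholipid and dead-cell receptors (4 without B16-GFP 7).

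The relations within types fell from 22 to 0 by Spearman's rho and to 0 without the 2 farthest tumors, and ran from 8 (without B16-GFP 7; 14 without B16-IFNA4 8) to 27 over single tumors left out. Of those 22, the one that turned sign was Cd300ld with nonclassical monocyte markers in B16-GFP, at −0.0339 without the 2, against 0.661 to 0.905 with single tumors left out. Mrc1 in B16-IFNA9 against B16-GFP turned to 0.0370 with library totals and 0.0115 with the replicate block, and ran from −0.147 to 0.0388 with single tumors left out. Tmem104 turned to 0.0565 in B16-IFNA4 and 0.120 in B16-IFNA9 against B16-GFP with library totals. In B16-IFNA9 it also turned to 0.00124 with filterByExpr, 0.00564 without a filter, 0.00712 with the replicate block and 0.00823 with only the 20 tumors compared. With single tumors left out it ran from −0.123 to 0.0286, from −0.0655 to 0.0599 and from −0.0173 to 0.114 in the 3 comparisons. Likewise Ptpn11 ran from −0.00212 to 0.0722 in B16-IFNA9 against B16-GFP and from −0.0390 to 0.00419 between the interferon types, Csk from −0.0130 to 0.112 and Acod1 from −0.265 to 0.0564 between the interferon types. The calls of S100a8, S100a9 and Csk in B16-IFNA4 and of Mmp9 in B16-IFNA9 against B16-GFP were lost under some alternatives, and those of Csk and Nat9 in B16-IFNA9 were gained under some. By the longest transcript, Cd300e was at place 5 and Cd300lf at place 4 in B16-IFNA9 tumors. The causes were not tested. Counts of Cd300c and of Cd300e in B16-GFP tumors are low, and limit what can be said of their levels there.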
